A study of Oryctolagus cuniculus with 3 samples.

Results

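The genes described here code for proteins of the splicing machinery in RCE1(5T5), a line of rabbit corneal epithelial cells. They were chosen by name, as every gene whose symbol starts with SRSF, HNRNP, SNRP, PRPF, SF3A or SF3B, or with LSM and a digit. The rule found 75 of 20536 gene names, which held 155 of 38696 coding sequences, and all 75 reached 1 CPM, a count scaled to the size of its library, in at least 1 library. The 3 stages had 1 RNA-seq library each: day 4 of culture (non-differentiated), day 6 (committed) and day 10 (terminally differentiated). In all 3 groups the cells were grown with mitomycin C-treated 3T3 feeder cells, a mouse fibroblast line, in a DMEM and F12 mixture with fetal calf serum, insulin, transferrin, hydrocortisone, triiodothyronine, cholera toxin, adenine and epidermal growth factor. The feeder layer was detached with EDTA before extraction. The labels name no gene manipulation and do not say whether dishes were pooled.

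Splicing removes introns from pre-mRNA. Small nuclear ribonucleoproteins (snRNPs) named U1, U2, U4, U5 and U6 assemble on the intron, each made of an RNA with a ring of Sm or Sm-like (LSM) proteins and some proteins of its own. SR proteins mostly promote the use of the exons they bind, hnRNP proteins often repress it, and the balance between them helps to set which exons a cell includes.

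The libraries held 10171693, 12582706 and 10899578 fragments on days 4, 6 and 10. With 1 library per stage no difference has a replicate check and no test was run; stage, day and library cannot be told apart. Brackets give 95% exact Clopper-Pearson intervals, which cover counting error only. The words rose and fell are kept for differences of log2(CPM + 1) of at least 2-fold, and smaller differences are given as values. In bulk RNA, fewer cells of a type and less RNA per cell cannot be told apart. Of 10 measured corneal epithelium markers 6 rose, 0 fell and 3 were lower by any amount on day 10, and with TPM 5 rose and 1 fell. Their summed level was 17526, 27953 and 19301 CPM, most of it the basal keratin KRT5 at 15650, 23374 and 13552 CPM. PAX6, the eye field regulator, was at 42.2, 127.1 and 358 CPM, and the corneal keratin KRT12 at 0, 19.3 and 120.7 CPM. The list of fibroblast and feeder markers had 17 measured genes, of which 16 were called lower and 1 (THY1) higher on day 10 than on day 4, and its summed level was 5907, 3440 and 1911 CPM. LUM, a further marker of that list, had no fragment in any library. Of 25 cell cycle genes 19 fell and 0 rose, with a summed level of 4392, 3383 and 1692 CPM. Both lists moved with the splicing genes, and their part in the results was not tested. Of 5 myeloid markers 2 were measured, CD68 and PTPRC, and these summed to 7.07, 26.9 and 69.5 CPM. Most of it was CD68, a lysosomal protein of macrophages, which rose from 5.6 to 25 and 68 CPM. PTPRC, which marks white blood cells, was at 1.47, 1.82 and 1.51 CPM, CSF1R had 7 fragments or fewer in each library, and TYROBP and FCER1G were at 0 in all libraries. The part of CD68 in the results was not tested.

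Most splicing genes were lower at the end of differentiation than at its start. From day 4 to day 10, 25 of the 75 members fell and 2 rose, where 15.8% of the 12818 measured genes fell and 17.1% rose. Their median difference was -0.78 on the log2 scale, against 0.01 over all measured genes, and 61 of 75 were lower by any amount, against 49.5% of all genes. At least 1.5-fold lower were 43 members, against 27.6% of all genes, and at least 1.5-fold higher were 5, against 29%. The summed level of the members was 15523, 12116 and 9788 CPM on days 4, 6 and 10, which was 1.66%, 1.16% and 0.953% of all fragments. A CPM that was lower at each of the 2 steps was seen for 42 members, against 27.9% of all genes, and a CPM that was higher at each step for 6, against 26.9%. With the deposited TPM, a level per length, 43 members fell and 1 rose, where 23.9% of the genes measured on that scale fell and 11.2% rose. On that scale the median of all measured genes was itself -0.29, and the median of the members lay 0.89 below it (-0.89).

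**Figure D1:**
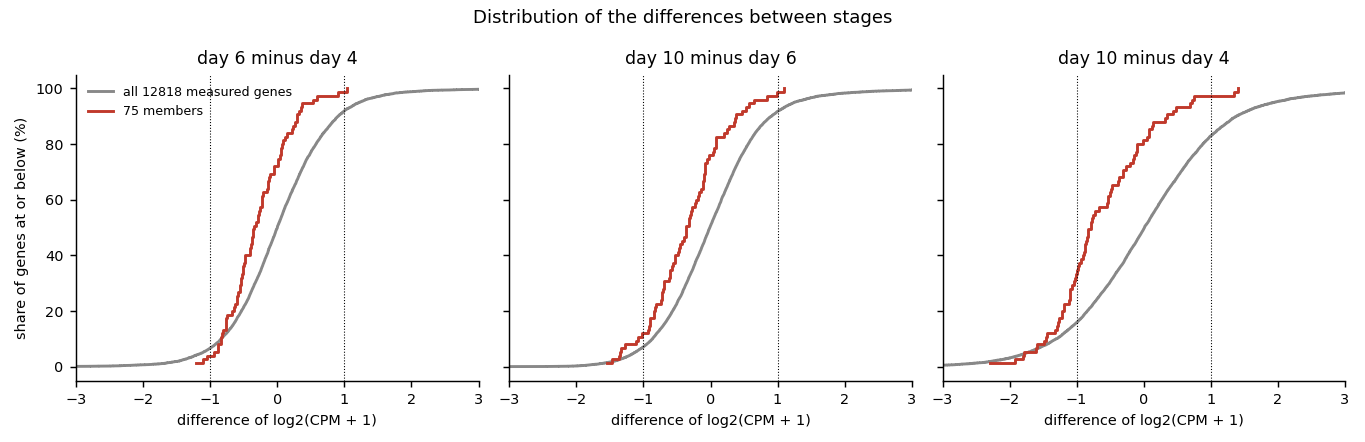
Cumulative share of genes (vertical axis, %) against the difference of log2(CPM + 1) between stages (horizontal axis) for the 75 members in red and all 12818 measured genes in grey, with thin vertical lines at 2-fold. The red curve lies to the left of the grey one over most of the range in all 3 panels, with a median of -0.34 for day 6 minus day 4, -0.37 for day 10 minus day 6 and -0.78 for day 10 minus day 4.

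With TMM scaling the medians of the members at the 2 steps were of similar size. With no scaling factor they were -0.50 and -0.34, and with TPM -0.70 and -0.38, so the first step was larger there. Relative to the median of all measured genes, the TPM medians were -0.42 and -0.37. From day 4 to day 6, 3 members fell and 1 rose, where 6.73% of all measured genes fell and 8.06% rose. With no scaling factor 7 fell and 0 rose, a share of falls near the 9.49% of all measured genes, of which 6.14% rose. With TPM 16 fell and 0 rose, where 13.2% of the genes measured on that scale fell and 4.53% rose. These counts are few because most differences were under 2-fold: the median was -0.34, against 0.00 over all genes, and 54 members were lower by any amount, against 50%. At least 1.5-fold lower were 20 members, against 18% of all genes, and at least 1.5-fold higher were 3, against 19.6%. From day 6 to day 10, 9 fell and 1 rose, where 7.1% fell and 8.25% rose in all, and the median was -0.37 against -0.01. Lower by any amount were 57, against 50.6%, and at least 1.5-fold lower or higher were 26 and 4, against 19.2% and 19.1%. With no scaling factor 8 members fell and 2 rose at this step, where 6.69% of all measured genes fell and 8.57% rose. With TPM 9 fell and 1 rose, where 6.81% of the genes measured on that scale fell and 7.31% rose. The 2 steps share the day 6 library, so that an error in it moves them in opposite directions.

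Among the 11 SR protein genes, 5 (45.5%) fell, 0 rose and 9 were lower by any amount on day 10 than on day 4 (median -0.53). Over all measured genes 15.8% fell, 17.1% rose and 49.5% were lower by any amount. SRSF2, the protein also known as SC35 that marks nuclear speckles, was at 33.8, 19.7 and 6.12 CPM. It fell 5.52-fold [4.23 to 7.3], the largest fall of all 75 members, on 368, 238 and 65 fragments. Its 2 coding sequences had the same values and an implied length of 310 bases, the shortest among the 11 SR genes. The values of SRSF2 thus rest on a short model. SRSF3, the smallest of the SR proteins, was at 289.9, 165.3 and 76.1 CPM and fell 3.81-fold [3.53 to 4.12]. Both were highest on day 4 and lowest on day 10.

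SRSF7, a close relative of SRSF3 that also acts in mRNA export, was at 230.3, 118.9 and 65.9 CPM and fell 3.49-fold [3.21 to 3.8]. SRSF6 was at 149.96, 87.4 and 48.4 CPM and fell 3.1-fold [2.8 to 3.43]. SRSF1, the founding member of the family and a binder of purine-rich exonic enhancers, was at 158.7, 102 and 57.7 CPM and fell 2.75-fold [2.5 to 3.02]. These 5 genes were each lower by at least 1.5-fold at the first step and again at the second.

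The other 6 SR genes took different courses. SRSF5 was at 156.9, 84.3 and 108.7 CPM, and SRSF4 at 69.1, 46.9 and 55.9 CPM, so both had their lowest value on day 6. SRSF11, which binds near 3′ splice sites, was at 165, 182.5 and 271.5 CPM, 1.65-fold [1.55 to 1.75] higher on day 10 than on day 4. With TMM scaling it was the one SR gene whose value on day 10 was more than 1.5-fold above that on day 4. Its difference was under 1.5-fold with no scaling factor (0.58 on the log2 scale) and with TPM (0.35). Per length, SRSF11 was at 0.204 of the TPM of SRSF3 on day 4, at 0.395 on day 6 and at 1.32 on day 10, so the order of the pair turned. That pair and the other ratios between genes below were chosen after their values were seen. SRSF9 was at 86.1, 101 and 91.2 CPM, SRSF10 at 88.5, 79 and 62.8 CPM and SRSF12 at 25.9, 26 and 20.7 CPM, and none of these 3 rose or fell.

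**Figure D2:**
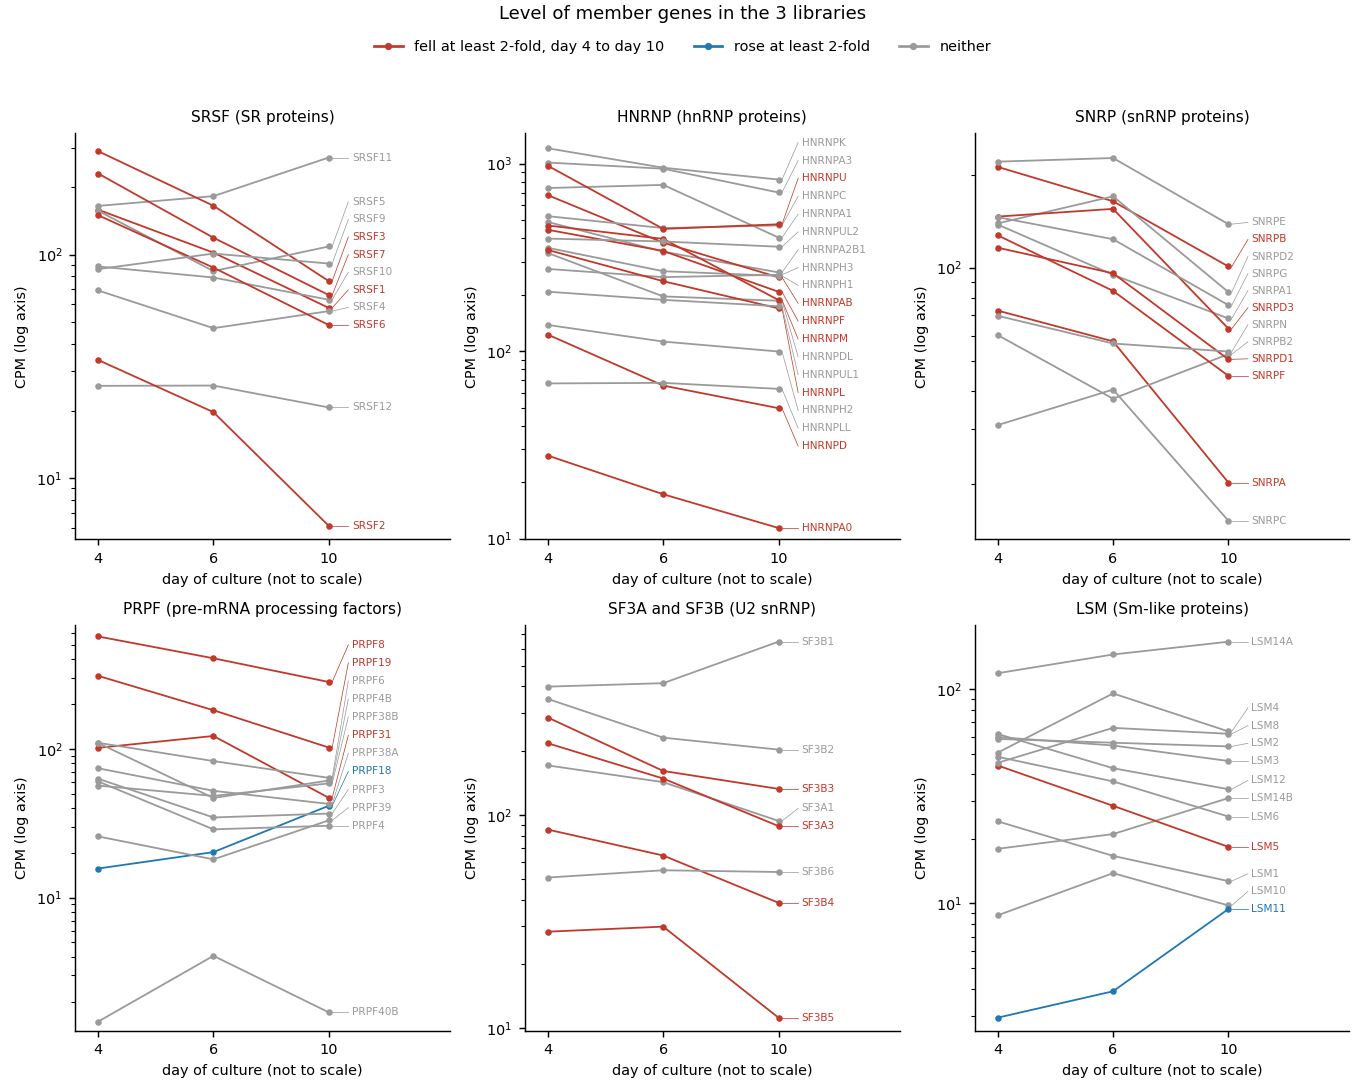
CPM of the members, all but 1 of the 75 (vertical axes, logarithmic) in the 3 libraries (horizontal axes, day of culture), in 1 panel per family; each line is 1 gene, red where it fell and blue where it rose at least 2-fold from day 4 to day 10. SRSF2 drops from 33.8 to 6.12 CPM, SF3B1 climbs from 398.5 to 647.3 CPM, and PRPF18 and LSM11 are the blue lines.

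All 19 hnRNP genes were lower on day 10 than on day 4, against 49.5% of all measured genes. Of the 19, 7 (36.8%) fell (median -0.84), where 15.8% fell in all. The hnRNP genes made up most of the level of the members, with summed values of 8808, 6801 and 5395 CPM. HNRNPAB, an RNA- and DNA-binding member of the A/B group, was at 678.3, 378.8 and 247.5 CPM and fell 2.74-fold [2.62 to 2.87]. HNRNPM was at 467.7, 396.8 and 187.2 CPM and fell 2.5-fold [2.37 to 2.63]. Most of the fall of HNRNPM came after day 6, whereas that of HNRNPAB was spread over both steps.

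HNRNPD, which binds AU-rich elements and is also called AUF1, was at 122.4, 65.5 and 49.6 CPM and fell 2.47-fold [2.23 to 2.73]. HNRNPU, a nuclear matrix protein that binds chromatin-associated RNA, was at 973.4, 448.6 and 474.8 CPM. It fell 2.17-fold [2.1 to 2.24] by day 6 and was at 1.06-fold [1.02 to 1.1] of its day 6 level on day 10. The whole fall of HNRNPU thus lay in the first step. HNRNPL, which binds CA repeats, fell 2.05-fold [1.94 to 2.17], from 346.3 CPM by way of 236 CPM to 169.1 CPM. Its paralogue HNRNPLL was at 67.3, 67.8 and 62.9 CPM. HNRNPA0 and HNRNPF also fell, by 2.43-fold [1.96 to 3.03] and 2.14-fold [2.03 to 2.25].

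Of the key hnRNP members, HNRNPA1, HNRNPA2B1, HNRNPK and HNRNPC differed by less than 2-fold with TMM scaling, whereas HNRNPU and HNRNPL fell, as given above. HNRNPA1, a repressor that often counters SRSF1, was at 741.2, 770 and 403.4 CPM, and was 1.84-fold [1.77 to 1.91] lower on day 10 than on day 4. HNRNPA2B1 was at 488.3, 339.2 and 263 CPM. HNRNPK, a binder of C-rich RNA, was the member with the highest CPM on each day, at 1207, 951.2 and 822.1. HNRNPC, which covers uridine tracts, was at 524.5, 453.1 and 468.4 CPM, and its level differed least among these 4 genes. With no scaling factor and with TPM, HNRNPA1 fell by more than 2-fold from day 4 to day 10, at -1.01 and -1.28 on the log2 scale. HNRNPA2B1 did so too, at -1.03 and -1.22, while HNRNPK and HNRNPC did not. Per length, the ratio of HNRNPC to HNRNPA1 in TPM was 0.798, 0.666 and 1.32 in the same order of days. The values of HNRNPA1 are uncertain where near-identical copies of the gene could share its reads, and the same holds for 6 members that had fractional counts although they have 1 coding sequence each. These were HNRNPD, HNRNPDL, LSM3, PRPF8, SNRPF and SNRPG, whose reads may have been shared with other rows.

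The genes of the snRNP proteins changed mainly after commitment. Of 12 SNRP genes, 5 (41.7%) fell and 0 rose, and all 12 were lower on day 10 than on day 4 (median -0.99). Over all measured genes 15.8% fell, 17.1% rose and 49.5% were lower by any amount. From day 4 to day 6 none of the 12 fell or rose (median -0.28), where 6.73% of all measured genes fell and 8.06% rose. From day 6 to day 10, 4 of the 12 fell and 0 rose (median -0.80), where 7.1% fell and 8.25% rose in all. The median of this family at the second step was lower than that of the members as a whole (-0.37).

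The 7 Sm ring proteins, which form the ring around the snRNA of U1, U2, U4 and U5, had a summed level of 1106, 1019 and 557 CPM. SNRPF was at 127.2, 84.1 and 44.6 CPM and fell 2.85-fold [2.57 to 3.17]; its counts and those of SNRPG were among the fractional ones. SNRPD3 was at 146.3, 154.9 and 63.5 CPM and fell 2.3-fold [2.1 to 2.53]. SNRPD1 was at 116, 95.9 and 50.5 CPM and fell 2.3-fold [2.08 to 2.55]. SNRPD3 was level up to day 6, while SNRPF was already lower there. SNRPB was at 211.8, 164 and 100.9 CPM and fell 2.1-fold [1.95 to 2.26]. SNRPE was at 220.3, 226.3 and 138.3 CPM, SNRPG at 145.6, 123.6 and 75.6 CPM and SNRPD2 at 139, 170.1 and 83.4 CPM. From day 6 to day 10 all 7 were lower by at least 1.5-fold, where 19.2% of all measured genes were. At the first step only SNRPF was. Per length, the highest of the 7 was SNRPE and the lowest SNRPB in each library, 2.55-fold apart on day 4, 3.37-fold on day 6 and 3.46-fold on day 10.

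Proteins particular to U1 and U2 did not all move alike. SNRPA, which binds a stem-loop of U1 RNA, was at 72.6, 57.7 and 20.2 CPM and fell 3.6-fold [3.09 to 4.21]. SNRPC, which helps U1 to recognise the 5′ splice site, was at 30.9, 40.3 and 15.2 CPM and fell 2.66-fold [2.22 to 3.2] from day 6 to day 10. SNRPB2, the U2 counterpart of SNRPA, was at 60.5, 37.7 and 52.5 CPM. The ratio of SNRPB2 to SNRPA in TPM was 0.833 on day 4, 0.637 on day 6 and 2.62 on day 10. SNRPA1, its partner on U2 RNA, was at 137.8, 94.8 and 68.5 CPM, 2.01-fold [1.84 to 2.2] lower on day 10 than on day 4 and just short of 2-fold after 1 CPM was added. SNRPN, which takes the place of SNRPB in neurons, was at 69.8, 56.8 and 53.5 CPM. SNRPN and SNRPB are close paralogues, so reads of the pair may be hard to tell apart. SNRPN has 1 coding sequence and its counts were not fractional, so no division of reads was seen in them.

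**Figure D3:**
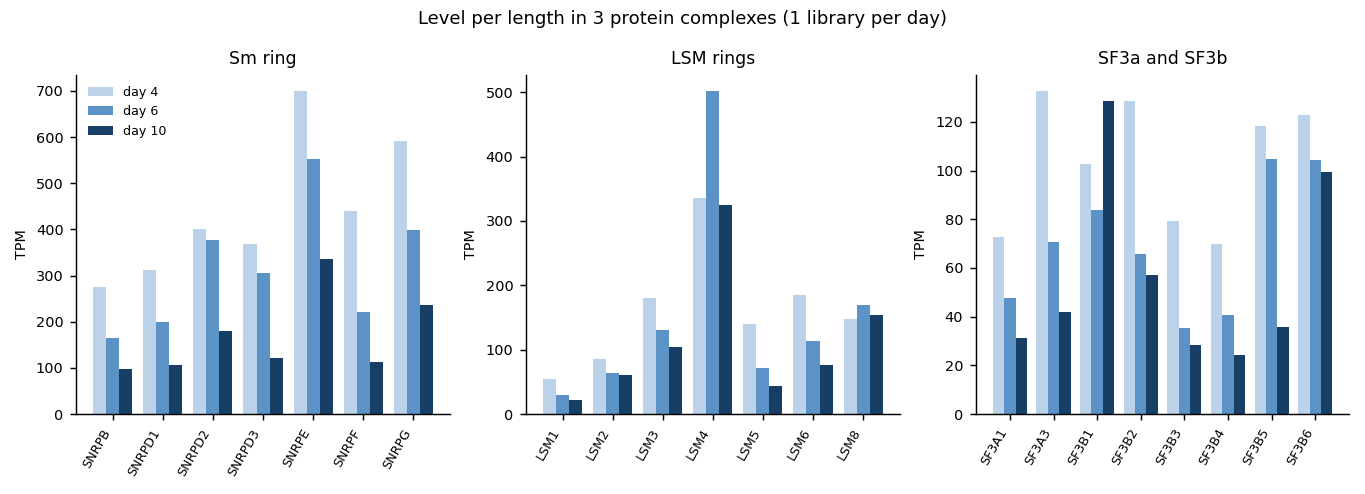
Level per length (TPM, vertical axes starting at 0) of the genes of the Sm ring, the LSM rings and SF3a with SF3b on days 4, 6 and 10, 1 bar per library. All 7 Sm genes are lowest on day 10, LSM8 is level while LSM1 is lower, and SF3B1 ends highest of its complex at 128.7 TPM.

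The U2 snRNP carries SF3a and SF3b, which hold the branch site of the intron. Of 8 genes of these complexes 4 fell and 0 rose over the whole course (median -0.98), where 15.8% of all measured genes fell and 17.1% rose. SF3A3 was at 216.2, 147.9 and 88.5 CPM and fell 2.44-fold [2.26 to 2.64]. SF3B5 was at 28.4, 29.9 and 11.2 CPM and fell 2.53-fold [2.04 to 3.15], with its whole fall after day 6. SF3B4 and SF3B3 fell 2.2-fold [1.96 to 2.48] and 2.16-fold [2.03 to 2.3]. SF3A1 was at 170.3, 142.2 and 93.6 CPM.

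SF3B1, the scaffold that clamps the branch site helix, went against its partners. It was at 398.5, 413.7 and 647.3 CPM, 1.62-fold [1.56 to 1.69] higher on day 10 than on day 4, and its difference was 0.70, 0.69, 0.56 and 0.32 on the log2 scale with TMM scaling, relative log expression scaling, no scaling factor and TPM. Per length, SF3B1 stood at 1.3 times SF3B3 on day 4, 2.38 times on day 6 and 4.52 times on day 10. SF3B6, which contacts the branch point adenosine, was at 50.8, 55 and 54 CPM. Within the 8 genes the span between the highest and the lowest TPM went from 1.9-fold on day 4 to 2.97-fold on day 6 and 5.34-fold on day 10.

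Among 13 PRPF genes, which code for pre-mRNA processing factors, 3 (23.1%) fell and 1 rose over the whole course (median -0.77). In all, 15.8% of measured genes fell and 17.1% rose, so on 13 genes the share of falls is not far from that. PRPF19, a ubiquitin ligase at the heart of the complex that activates the spliceosome, was at 309.5, 181.8 and 102.1 CPM and fell 3.03-fold [2.83 to 3.25]. PRPF8, the largest protein of the catalytic centre, was at 569.4, 406.2 and 281.5 CPM and fell 2.02-fold [1.94 to 2.11], on counts that were fractional. Both were lower at each step. Per length, SF3B1 was at 1.26 times PRPF8 on day 4 and 4.11 times on day 10.

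The genes of the U4/U6.U5 tri-snRNP did not all change at the same step. PRPF8 was lower by similar amounts at both, with differences of -0.49 and -0.53 on the log2 scale. PRPF6, at 109.9, 82.8 and 63.9 CPM, was so too, at -0.40 and -0.37. PRPF31, which joins U4/U6 to U5, was at 101.6, 122.1 and 46.9 CPM and fell 2.6-fold [2.35 to 2.89] from day 6 to day 10. PRPF4, a U4/U6 protein, was at 60.4, 28.8 and 30.4 CPM and fell 2.1-fold [1.84 to 2.4] from day 4 to day 6. PRPF3, which binds PRPF4, was at 63, 34.6 and 36.7 CPM. PRPF3 and PRPF4 thus reached their day 10 level by day 6, while PRPF31 was not lower until after it. PRPF4B, a kinase of the tri-snRNP, was at 109.5, 46.8 and 61.2 CPM and fell 2.34-fold [2.12 to 2.59] by day 6.

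PRPF18, which acts in the second catalytic step, was at 15.7, 20.2 and 41.4 CPM and rose 2.64-fold [2.21 to 3.17] from day 4 to day 10, a call lost with TPM (0.97). PRPF39, a protein linked to U1, was at 25.8, 18.1 and 33.1 CPM, and PRPF38B at 56.6, 48.3 and 58.6 CPM. PRPF40B was the only member that moved at least 1.5-fold up and then at least 1.5-fold down on the log2(CPM + 1) scale. It had 16, 49 and 18 fragments, so its values of 1.47, 4.06 and 1.7 CPM are the least precise of all members. Its first step, a rise of 2.77-fold [1.55 to 5.21], was the 1 rise counted between day 4 and day 6. From day 6 to day 10 the median of the family was 0.08 and its mean -0.10, and the median was -0.02 with TPM.

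**Figure D4:**
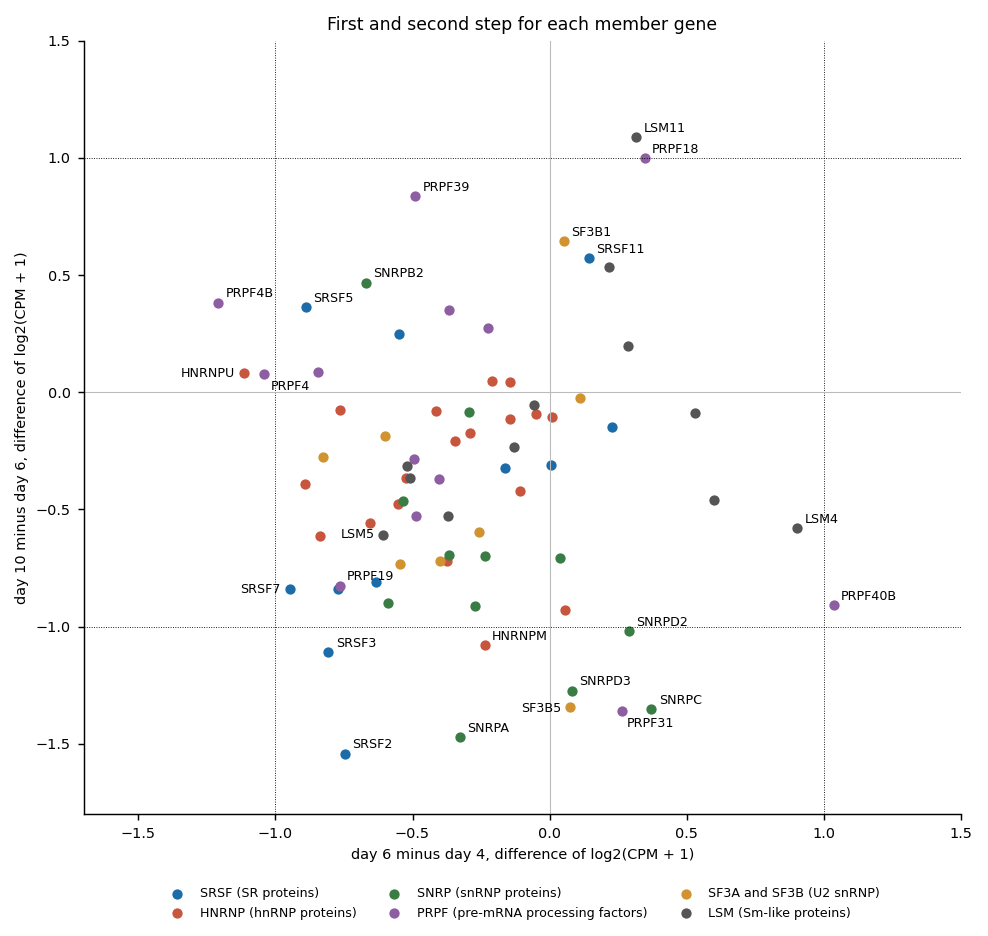
Each point is 1 member, with its difference of log2(CPM + 1) from day 4 to day 6 on the horizontal axis and from day 6 to day 10 on the vertical axis; colours give the family and thin lines mark 0 and 2-fold. SRSF2, SRSF3 and SRSF7 lie low and left, HNRNPU, PRPF4 and PRPF4B farthest left and above 0 on the vertical axis, and SNRPC, SNRPD3, SF3B5 and PRPF31 low and to the right of 0.

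Sorted by when they were lower by at least 1.5-fold, 9 members were lower at both steps, 11 only from day 4 to day 6 and 17 only from day 6 to day 10. These were 12%, 14.7% and 22.7% of the members, against 4.89%, 13.1% and 14.3% of all measured genes. This grouping was made after the values were seen. Of the 9, 5 were SR genes, and the others were HNRNPAB, LSM5, PRPF19 and SNRPF. Of the 17, 8 were SNRP genes and 4 belonged to SF3a and SF3b. No SR gene was among the 17. The summed cell cycle level was 4392 CPM on day 4, 3383 on day 6 and 1692 on day 10, with 1 of 25 cell cycle genes down at the first step and 18 at the second. Genes of ribosome biogenesis instead fell at both steps, 20 of 27 and then 15 of 27. In all, 6.73% of measured genes fell at the first step and 7.1% at the second.

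The LSM genes moved in both directions. Of 12, 1 fell and 1 rose from day 4 to day 10, with a median of 0.01 and a mean of -0.06. The median was -0.12 with no scaling factor, where 3 fell and 1 rose, and -0.34 with TPM, where 4 fell and 1 rose. Over all measured genes the median was 0.01 with TMM, -0.11 with no scaling factor and -0.29 with TPM. The all-gene share of falls was 15.8%, 19% and 23.9% in the same order. Their summed level was 540, 580 and 532 CPM. Whether this family differs from the others was not tested. LSM2 to LSM8 form the ring of U6 RNA, and LSM1 replaces LSM8 in the cytoplasmic ring that promotes mRNA decapping. LSM5, shared by both rings, was at 44, 28.5 and 18.4 CPM and fell 2.39-fold [2.02 to 2.84]. LSM6, also shared, was at 48.3, 37.1 and 25.4 CPM, and LSM2 at 58.5, 56.1 and 54 CPM.

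LSM1 and LSM8 moved apart. LSM1 was at 24.1, 16.7 and 12.7 CPM, 1.9-fold [1.54 to 2.35] lower on day 10 than on day 4. LSM8 was at 45.2, 65.9 and 61.8 CPM, 1.37-fold [1.21 to 1.54] higher. The ratio of LSM8 to LSM1 in TPM, which no library scaling changes, was 2.69 on day 4, 5.65 on day 6 and 7.26 on day 10. LSM4 was at 50.5, 95.3 and 63.4 CPM, the highest of its values being on day 6. Its coding sequences were at most 144 bases long as implied by the tables, so its level per length rests on a short model.

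The LSM proteins outside these rings were level or higher on day 10, except LSM12. LSM11, which with LSM10 belongs to the U7 snRNP that processes histone mRNA, was at 2.94, 3.9 and 9.42 CPM and rose 3.21-fold [2.13 to 4.94] from day 4, on 32, 47 and 100 fragments. It rose 2.42-fold [1.69 to 3.49] in the second step, the 1 rise counted there. LSM10 was at 8.81, 13.9 and 9.8 CPM. LSM14A and LSM14B, proteins of cytoplasmic P bodies, were at 118.4, 144.7 and 166 CPM and at 18, 21.1 and 31 CPM. LSM12 was at 61.7, 42.7 and 34.1 CPM.

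Per length, the order of the members was led by HNRNPA3 on each day, with 899.6, 648.1 and 476.5 TPM. On day 4 it was followed by HNRNPAB at 828.3 TPM, HNRNPK at 806.4, HNRNPA1 at 726.8 and SNRPE at 700.3. On day 10 it was followed by HNRNPK at 417.7 TPM, HNRNPC at 395.3, SNRPE at 336.1 and LSM4 at 325.3. HNRNPAB and HNRNPA1 thus left the leading 5. PRPF40B was the lowest on each day, at 0.6, 1 and 0.4 TPM. Across the 75 members, Spearman's rho between coding length and the difference from day 6 to day 10 was 0.365, against 0.077 over 12813 genes, so that short members lay lower. The short members include the Sm genes, and the points share their libraries. From day 4 to day 6 rho was -0.209 among members and -0.126 over all genes.

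Where a gene had several coding sequences, their shares were almost constant. Of the 75 members 29 had more than 1 coding sequence and 24 of these had values that differed between them. The largest shift was in PRPF4, whose main coding sequence held 70.2% of the fragments of the gene on day 4, 65.3% on day 6 and 72.3% on day 10. In SRSF1 the main one held 44.1%, 40.1% and 39.6%. No coding sequence of any member shifted by more than 10 percentage points (0 of 29 genes). Fragments that several coding sequences share were split among them, which pulls such shares together, and exons outside the coding sequence were not counted.

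Other genes of the splicing pathway were looked up in lists chosen by function. With TMM scaling the genes that assemble snRNPs had the largest share of falls among the splicing lists outside the naming rule. Of 19, 10 (52.6%) fell and 0 rose over the whole course (median -1.16), where 15.8% of all measured genes fell. With TPM 11 of the 19 fell, where 23.9% of all genes fell. That was a smaller share than in 2 lists given below, 3′ splice site recognition (11 of 14) and the exon junction complex (9 of 13). GEMIN5, which recognises snRNA for the SMN complex, was at 102.2, 24.5 and 13.9 CPM and fell 7.33-fold [6.17 to 8.77]. GEMIN4 was at 64.2, 25.5 and 10.2 CPM and fell 6.32-fold [5.15 to 7.81]. PRMT5, the methyltransferase that prepares Sm proteins for assembly, fell 4.67-fold [4.1 to 5.32]. At the first step 5 of the 19 assembly genes (26.3%) fell, with GEMIN5 down 4.18-fold [3.67 to 4.77], where 6.73% of all measured genes fell. Of the 7 Sm ring genes 0 fell there, and 7 genes are too few to set against that share.

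Of 14 genes that recognise the branch site and the 3′ splice site 4 fell and 0 rose (median -0.81), and 6 fell with no scaling factor and 11 with TPM. Over all measured genes the share of falls was 19% with no scaling factor and 23.9% with TPM. SF1, the first protein to bind the branch site, was at 258.8, 107.2 and 54.6 CPM and fell 4.74-fold [4.33 to 5.19]. PHF5A, a subunit of SF3b outside the naming rule, was at 80.9, 40.8 and 26.6 CPM and fell 3.04-fold [2.66 to 3.49]. In the list of U1, U5 and minor snRNP proteins outside the rule, 3 of 22 (13.6%) fell and 1 rose (median -0.45), a share of falls near the 15.8% of all measured genes. With TPM 8 fell and 1 rose, where 23.9% of all genes fell and 11.2% rose. EFTUD2, the GTPase of U5 that partners PRPF8, was at 318.1, 194 and 112.8 CPM and fell 2.82-fold [2.64 to 3.01]. SNRNP25, of the minor spliceosome, was at 34.5, 40.9 and 11.7 CPM and fell 2.95-fold [2.41 to 3.65]. PDCD7, of the same particle, was at 3.58, 9.95 and 10.9 CPM and rose 3.05-fold [2.11 to 4.51].

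In the catalytic core and helicase list 6 of 34 (17.6%) fell and 1 rose (median -0.21), where 15.8% of all measured genes fell. With TPM 11 fell and 0 rose, where 23.9% of all genes fell and 11.2% rose. SLU7, a second-step factor like PRPF18, was at 77.8, 95.5 and 179.1 CPM and rose 2.3-fold [2.12 to 2.5], a call lost with TPM (0.85). PPIL1, a cyclophilin of the activated spliceosome, fell 2.38-fold [1.98 to 2.89] and WBP11 fell 2.25-fold [2.05 to 2.47]. Of 13 genes of the exon junction complex and its export partners 3 (23.1%) fell and 0 rose (median -0.67). With TPM 9 fell (median -1.07). Over all measured genes 15.8% fell, or 23.9% with TPM, where the median was -0.29. CASC3 was down 2.37-fold [2.06 to 2.72] and MAGOHB 2.3-fold [2.05 to 2.59].

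Kinases and relatives of SR proteins were mixed, with 4 of 18 (22.2%) down and 2 up (median -0.31). Over all measured genes 15.8% fell and 17.1% rose, so these shares are not far from those of all genes. CLK1, a kinase that phosphorylates SR proteins in the nucleus, was at 46.2, 90 and 201.1 CPM and rose 4.36-fold [3.95 to 4.81]. CLK2, of the same family, was at 23.2, 56.7 and 51.2 CPM and rose 2.21-fold [1.9 to 2.57], a call lost with no scaling factor (0.98) and with TPM (0.74). SCAF4, which acts where transcription ends, fell 2.72-fold [2.38 to 3.11]. Among tissue-regulated and other splicing regulators 11 of 39 (28.2%) fell and 3 rose (median -0.39), against the same 15.8% and 17.1% of all measured genes. SFPQ, a paraspeckle protein, was at 512.2, 202.9 and 86.1 CPM and fell 5.95-fold [5.55 to 6.39]. RBM5 rose 2.2-fold [2.04 to 2.38], and MBNL2 rose 2.07-fold [1.83 to 2.35]. All 3 rises of this list were lost with no scaling factor and with TPM, where RBM5 was at 0.99 and 0.75 and MBNL2 at 0.89 and 0.68 on the log2 scale.

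**Figure D5:**
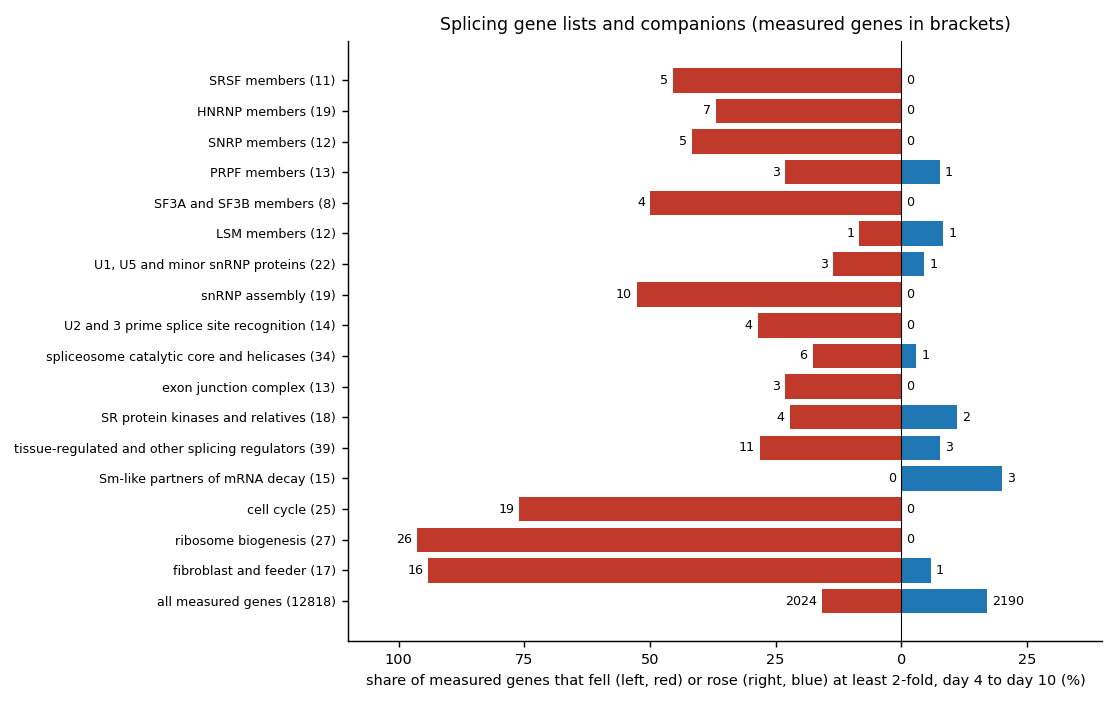
Share of the measured genes of each list that fell (red, to the left) or rose (blue, to the right) at least 2-fold from day 4 to day 10 (horizontal axis, %), with counts at the bar ends and the number of measured genes in brackets. In the snRNP assembly list 10 of 19 fell, in ribosome biogenesis 26 of 27 and in the cell cycle list 19 of 25, against 2024 of 12818 over all measured genes.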

How the data were processed

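RNA was measured in 3 libraries of total RNA made with an Illumina TruSeq kit, per the labels' protocols. Per the file headers, the authors deposited fragment and read counts, which are estimated counts per coding sequence, not normalized and often fractional. They also deposited FPKM and RPKM values, which are normalized for length and depth, TPM values, and a raw transcript count, which behaves as a coverage signal of reads times an implied read length of 75 over coding length. Per the submitters' processing notes, OryCun2.0 was the genome build. Neither aligner, counter nor strand setting is stated in those sources, and reads of genes that overlap, or of antisense partners, may be mixed.

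Fragments were summed per gene name and rounded. CPM used TMM factors of 1.07, 0.958 and 0.974 (edgeR 4.0.16, R 4.3.3). A gene was measured at 1 CPM in at least 1 library. Differences are of log2(CPM + 1), which understates changes of low genes, and a gene rose or fell at 2-fold. Folds are CPM ratios with Clopper-Pearson intervals (scipy 1.17.1), which cover counting error only. Values per length are the deposited TPM summed per gene. The steps were tested on simulated data. Members and lists were chosen with earlier results of these data known. Values in every library were given for 25 key members; for up to 3 members of each family with the largest rise and fall from day 4 to day 10 at 10 CPM or more; for members that turned by 1.5-fold; and for up to 2 genes each way per other list. Further members, and PRMT5 among the other genes, were named after their values were seen. Among 5185 LOC names, 3476 matched a gene in RefSeq assembly mOryCun1.1, and 0 of these had a symbol that meets the rule. Sequences and genes outside the tables were not analysed here, and the values of a few single genes are not reported here, though they stand in the counts.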

Additional observations from a re-analysis of the deposited data

How the results depend on the processing

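No paired analysis was possible because each stage has 1 library. In all, 12 alternatives were run. From day 4 to day 6 the main counts were 3 down and 1 up. They were 7 and 0 with no scaling factor, 16 and 0 with TPM, 20 and 3 at 1.5-fold and 0 and 0 at 4-fold. Over all measured genes 9.49% fell and 6.14% rose with no scaling factor, and 13.2% and 4.53% with TPM. With read counts, a pseudocount of 5 or a minimum of 5 CPM the 1 rise became 0. From day 6 to day 10 the main counts were 9 down and 1 up. They were 26 and 4 at 1.5-fold and 0 and 0 at 4-fold; the 1 rise became 2 with relative log expression factors, no scaling factor, a pseudocount of 0.25 or only the most abundant coding sequence, and 0 with a pseudocount of 5. From day 4 to day 10 the main counts were 25 down and 2 up. They were 43 and 1 with TPM, 43 and 5 at 1.5-fold and 1 and 0 at 4-fold. Over all genes measured by TPM 23.9% fell and 11.2% rose. The 2 rises became 1 with a pseudocount of 5.

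The same 25 genes fell under all 4 scalings (TMM, relative log expression, none, TPM) from day 4 to day 10. With TPM the falls over that span were 10 of 12 SNRP genes, against 5 in the main counts, and 8 of 13 PRPF genes, against 3. Of all genes 23.9% fell with TPM, against 15.8% in the main counts. The sign of the difference changed between these scalings for 14 members from day 4 to day 6, among them HNRNPA1, SF3B1, SRSF11, SNRPD2, SNRPD3 and SNRPE, for 1 from day 6 to day 10 (PRPF4), and for 7 from day 4 to day 10, among them LSM4, SF3B6 and SRSF9. With TPM the median of all measured genes shifted to -0.28 from day 4 to day 6 and to -0.29 from day 4 to day 10, and with no scaling factor to -0.14 and -0.11. The share of rises among called members from day 4 to day 6 was 25% and became 0% with no scaling factor and with TPM, on few calls. Which scaling is nearer to RNA per cell was not tested. Depth limits PRPF40B, LSM11 and SRSF2 most, since each had 65 fragments or fewer in at least 1 library.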

Other observations

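The genes that work with the cytoplasmic LSM ring in mRNA decay had a median near that of all measured genes with TMM and with TPM. Of 15 measured genes of that list, 0 fell and 3 rose over the whole course (median 0.02). Over all measured genes 15.8% fell and 17.1% rose (median 0.01). With TPM 3 of the list fell and 0 rose (median -0.34), where 23.9% of all genes fell and 11.2% rose. The TPM median of all measured genes was -0.29. XRN1, the exonuclease that degrades decapped mRNA, was at 40.6, 36.5 and 90.5 CPM and rose 2.23-fold [1.99 to 2.5], with its rise after day 6. PNRC1, a partner of the decapping complex, was at 13.9, 17.7 and 34.5 CPM and rose 2.47-fold [2.04 to 3.01]. DCP1B rose from 7 to 32 fragments. XRN1 is named after its values were seen.

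ESRP1, an epithelial splicing regulator, was at 81 CPM on day 4, 150.3 on day 6 and 164.9 on day 10 and rose by 1.02 on the log2 scale, a call lost with no scaling factor (0.88) and with TPM (0.60). Its paralogue ESRP2 was at 68, 103.1 and 71.3 CPM. Both were chosen for this paragraph after their values were seen.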
